A study of Mus musculus with 32 samples.

Results

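RADICL-seq records which RNAs lie near which DNA. In crosslinked nuclei a bridge adapter is ligated to the 3′ end of an RNA and then to a nearby DNA end, so that each sequenced molecule carries 1 RNA tag and 1 DNA tag. The libraries described here are the 5 made from Oli-neu, a mouse line of the oligodendrocyte progenitor lineage (mOPC), with and without removal of protein before the RNA was ligated. Every listed RNA–DNA interaction of these libraries was taken, 8780476 of the 25231081 interactions in the 15 libraries of the series (34.8%). An interaction is a distinct combination of RNA position, gene, strand and DNA position within a library. The rest of the series is from mouse embryonic stem cells (mESC), some fixed with 2% formaldehyde and some treated with actinomycin D, an inhibitor of transcription. All of these entered the fit named below as all 15 libraries, and only mESC 1FA and NPM libraries the comparison of the lines. All Oli-neu cells grew in medium with the thyroid hormones T3 and thyroxine and the growth factors bFGF and PDGF-BB. They were then fixed with 1% formaldehyde, and all libraries passed an RNase H step, which cuts RNA paired with DNA. In the 3 1FA libraries (2210765, 2107741 and 1998951 interactions) the ligation was done in the fixed nuclei. In the 2 NPM (non-protein-mediated) libraries (1272653 and 1190366 interactions) the crosslinks were reversed by proteinase K under denaturing conditions first, so that the ligation took place in solution. The replicates were batches of cells at different passages of 1 line, and p-values measure no spread beyond such batches.

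The comparison asks which contacts remain when protein is taken away. A nascent transcript is still attached to its gene through RNA polymerase, can pair with its template in an RNA–DNA hybrid (R-loop), and is held among other chromatin by proteins. Fixation keeps such neighbours together. The paper reasons that after protein removal only RNA and DNA that bind each other directly should be joined reproducibly, which was not tested here. Abundant nuclear RNAs such as Malat1, which gathers at nuclear speckles, and Neat1, the scaffold of paraspeckles, can reach DNA on other chromosomes.

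The authors list only pairs of a transcript and a 25-kb DNA bin that passed their test on the pooled replicates of a group. A group's libraries therefore share 1 list of pairs, and a pair not listed is at 0 in all of them. A p-value thus measures the spread between libraries over a shared list, and not the spread of all captured contacts. A transcript listed at 0 may still have been captured, and the total of a library is not its sequencing depth, which was not used here. Pooled, the 1FA libraries held 220950 pairs from 11681 transcripts in 62535 bins. The NPM libraries held 44892 pairs from 14633 transcripts in 34946 bins. The 35416 pairs in both lists were 16.0% of the 1FA pairs and 78.9% of the NPM pairs. Each transcript was listed with 18.7 to 18.9 bins on average in the 1FA libraries and with 3.07 in both NPM libraries.

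The labelled cell type was checked by markers, whose lists were assembled with earlier results of these data known. All 13 core progenitor genes were listed, and together they took 15165 to 16437 of every 1000000 interactions (counts per 1000000, CPM) in the 1FA libraries and 11131 to 12156 in the NPM libraries. Sox6 and Tnr, a transcription factor and a matrix glycoprotein of progenitors, led this sum, while the transcripts of Pdgfra, the PDGF receptor of progenitors, and of Olig1, a lineage transcription factor, were little captured in 1FA. Pdgfra had 3, 8 and 4 interactions in 1FA and 48 and 29 in NPM, and Olig1 3, 3 and 2 against 141 and 32. The astrocyte genes summed to 71.6 to 98.1 CPM in 1FA and 203 to 223 in NPM, and the microglial genes to 16.1 to 20.8 and 58.1 to 73.9. Other lists were captured more. The neuronal genes, of which 4 were tested, summed to 1262 to 1487 CPM in 1FA and 1107 to 1209 in NPM, those of mature oligodendrocytes to 2505 to 2607 and 2139 to 2271, and the study's mESC markers to 779 to 842 and 902 to 1027. The defining astrocyte gene Gfap was listed at 0 in all 3 1FA libraries and had 4 interactions in each NPM library. The part of these sums in the results was not tested.

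Among the listed interactions, distance between the RNA and DNA tags separated the groups most clearly. Among all uniquely mapped interactions, before the test of pairs, the paper reports that most had their tags on different chromosomes in both groups. The shares by distance below thus hold for the listed pairs only. Interactions in cis (on 1 chromosome) with tag centres within 1 kb made up 6.995%, 3.73% and 5.11% of the 1FA libraries and 87.9% and 86.5% of the NPM libraries. The NPM mean was 16.5 times the 1FA mean (87.2% ± 0.992, SD, n = 2, against 5.28% ± 1.64, n = 3). At every longer range in cis the NPM libraries lay below all 1FA libraries. With each pair of transcript and bin counted once per library, the difference from 1 to 10 kb turned to 1.97 percentage points. From 10 to 100 kb the shares were 25.3%, 25.4% and 25.1% in 1FA and 1.49% and 1.18% in NPM. From 100 kb to 1 Mb they were 30.4%, 33.2% and 32.1% against 0.169% and 0.176%, the widest gap beyond 1 kb. DNA tags fell in the gene that gave the RNA for 35.7%, 32.2% and 34.9% of 1FA interactions and for 95.5% and 93.0% of NPM interactions.

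Trans interactions, with the tags on different chromosomes, were 13.3%, 12.6% and 11.3% of the 1FA libraries and 3.93% and 6.27% of the NPM libraries. The difference of −7.31 percentage points turned to 1.14 points when Malat1 was left out and to 2.93 points when each pair of transcript and bin was counted once per library. Among all uniquely mapped interactions, before the test of pairs, the paper reports the opposite direction, with a higher trans share in NPM. The lower NPM share thus holds for the listed pairs only, and the trans share of all captured contacts was not tested here. Among the interactions outside the RNA's own gene, 20.7%, 18.6% and 17.4% were trans in 1FA against 86.8% and 89.3% in NPM. Of the 33 shares and means compared here and below, the groups did not overlap in any but the share of simple repeats and the median upstream distance, and each such difference had a two-sided exact permutation p of 0.2 (0.213 after Benjamini-Hochberg adjustment), which is the lower limit for 3 libraries set against 2. No share could thus pass 0.05 in this design.

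**Figure D1:**
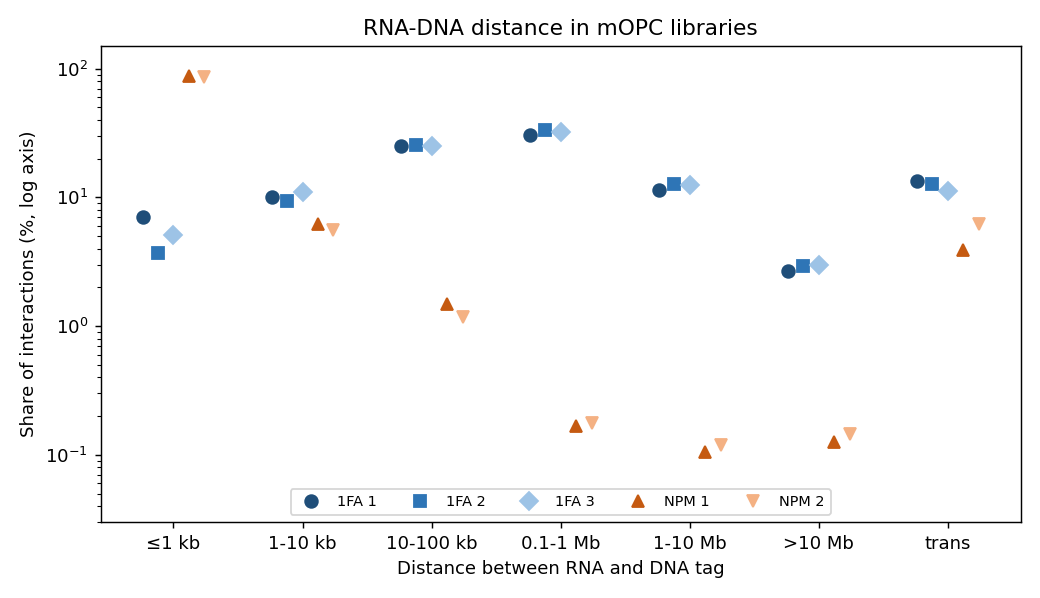
Share of each library's listed interactions (vertical, percent, log axis) by the distance between RNA and DNA tag (horizontal), 1 point per library with 3 1FA and 2 NPM libraries. The NPM libraries hold 87.9% and 86.5% within 1 kb, and both lie below all 1FA libraries in every other class.

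Within 1 kb the DNA tag lay on a particular side of the RNA tag in the NPM libraries. Among contacts with tag centres over 25 bp apart, the DNA tag was upstream of the RNA tag, against the direction of transcription, in 98.5% and 98.9% of NPM contacts and in 74.8%, 67.0% and 65.1% of 1FA contacts. Most of these DNA tags were between 25 and 500 bp upstream, with 72.0% and 73.4% of all NPM contacts within 1 kb against 38.8%, 43.8% and 40.4% in 1FA. On the downstream side, from 25 to 1000 bp, lay 1.31% and 1.03% of the NPM contacts and 15.9%, 28.1% and 28.1% of the 1FA contacts. The difference in the upstream share of all contacts within 1 kb was 29.3 points over all RNA tags, 25.5 points in exons alone and 30.4 points in introns alone. The median distance of upstream DNA tags did not separate the groups, with 223, 285 and 273 bp in 1FA and 268 and 287 bp in NPM (exact permutation p = 0.8). Centres within 25 bp of each other made up 36.9%, 15.0% and 19.6% of close contacts in 1FA and 14.6% and 9.63% in NPM, so that 1FA replicate 1 stood apart from the other libraries.

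**Figure D2:**
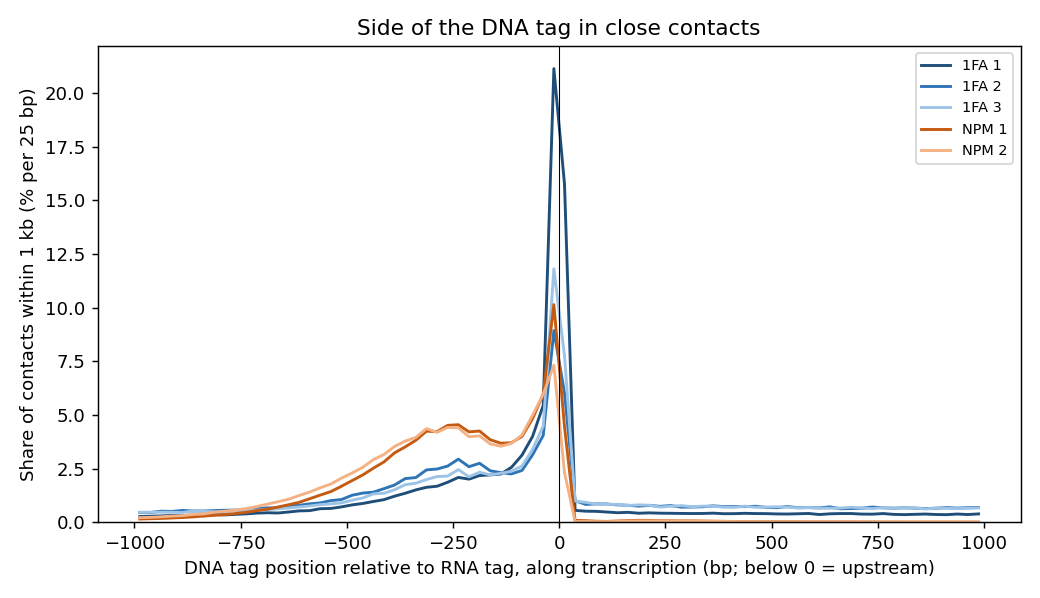
Position of the DNA tag relative to the RNA tag among contacts within 1 kb (horizontal, bp along transcription, below 0 upstream) against the share of these contacts per 25 bp (vertical, percent), 1 line per library. The NPM lines drop to near 0 on the downstream side, and 1FA replicate 1 has the highest peak at 0.

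The NPM libraries held more RNA tags in coding sequence and 3′ UTRs. Coding sequence made up 3.62%, 3.22% and 2.62% of 1FA interactions and 13.8% and 11.3% of NPM interactions, and 3′ UTRs 3.01%, 2.77% and 3.24% against 9.15% and 5.60%. The 5′ UTRs went the other way, with 0.725%, 0.808% and 0.717% in 1FA and 0.642% and 0.701% in NPM, a difference that turned to 0.293 points with each pair counted once and to 0.976 points without own-gene contacts. Introns were the largest class in every library, with 75.7%, 77.4% and 78.9% in 1FA and 65.9% and 68.5% in NPM. Over the interactions outside the RNA's own gene, the differences in coding sequence and 3′ UTRs turned to −0.49 and −2.37 points. Exonic tags that the files place in neither coding sequence nor a UTR were 16.9%, 15.8% and 14.5% in 1FA and 10.5% and 13.9% in NPM, a difference that turned to 2.74 points without Malat1.

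Repeats differed less. RNA tags in SINE repeats were 3.98%, 4.06% and 4.31% of 1FA interactions and 3.52% and 3.74% of NPM interactions, and those in LINE repeats 1.87%, 1.75% and 1.76% against 1.54% and 1.68%. Tags in simple repeats overlapped between the groups, with 0.529%, 0.546% and 0.544% against 0.538% and 0.699% (exact permutation p = 0.6). DNA tags outside annotated genes were 24.4%, 26.0% and 25.6% of 1FA interactions and 1.598% and 2.55% of NPM interactions.

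RNA tags also lay nearer to gene ends in NPM. Over genes of 10 kb or more, the final 1 kb before the annotated end held 1.20%, 1.101% and 1.20% of RNA tags in 1FA and 3.61% and 2.41% in NPM, while the first 1 kb held 2.06%, 2.24% and 1.99% against 1.44% and 1.87%. When each such gene was cut into 10 equal parts, the part at the start held 14.4%, 14.8% and 14.6% of tags in 1FA and 10.3% and 11.3% in NPM. The part at the end held 9.04%, 8.67% and 9.06% in 1FA and 14.5% and 11.96% in NPM. The 1FA profile was thus highest at the start and the NPM profile at the end, and NPM replicate 1 lay further from 1FA than NPM replicate 2 in these 4 shares.

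**Figure D3:**
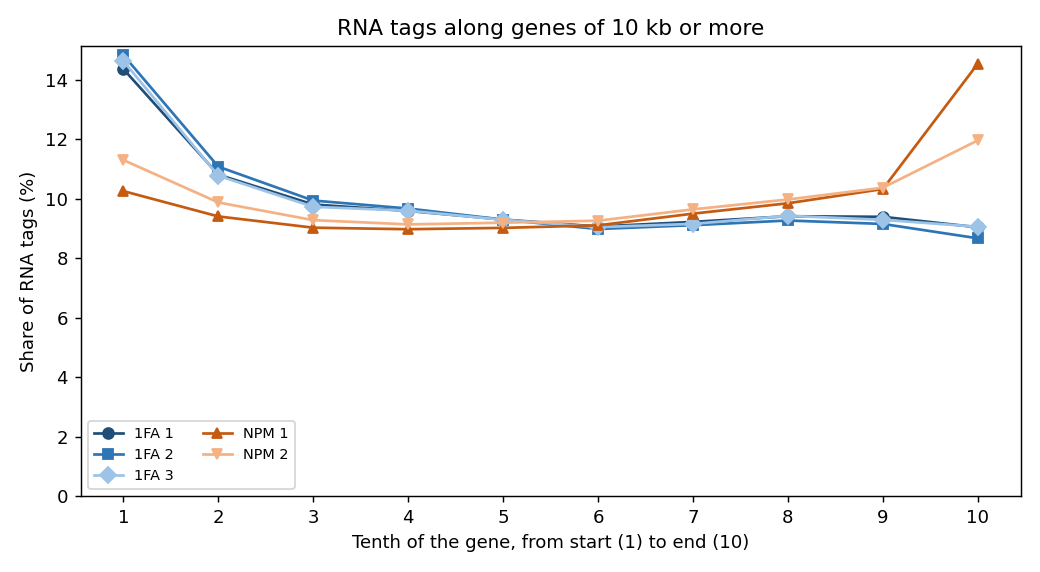
Share of RNA tags (vertical, percent) in each of 10 equal parts of genes of 10 kb or more, from start to end (horizontal), 1 line per library. The 1FA lines start at 14.4% to 14.8% and end at 8.67% to 9.06%, whereas the NPM lines end at 14.5% and 11.96%.

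Transcripts were then compared one by one, as CPM after scaling, to see which RNAs the NPM list favoured. Of 10419 transcripts tested with limma, 3095 were called higher in NPM (29.7%) and 2675 lower (25.7%) at an adjusted p under 0.05. The direction depended on the scaling. TMM factors left the median of all transcripts at a log2 fold change (NPM minus 1FA) of 0.20, whereas scaling by the total number of listed interactions left it at 0.95 and gave 6157 higher (59.1%) and 757 lower (7.27%). Changes below are on the TMM scale and are to be read against that median, and the interactions given beside them are unscaled, from NPM libraries with lower totals. Without own-gene contacts 290 were higher and 4370 lower, with a median of −4.79. That setting was scaled anew within the interactions that remained, which were few in NPM. Its calls, here and below, compare levels within that remainder and not CPM of all listed interactions. Of the 5770 calls over all contacts with TMM factors, 540 were of transcripts listed at 0 in 1FA and 32 of transcripts listed at 0 in NPM, for which no fold is given. A transcript had to have 10 interactions in 2 libraries to be tested, and 1624 reached 10 in NPM libraries only and 115 in 1FA libraries only. These had to differ, and 1552 of the former were called higher and 78 of the latter lower. The other 8680, with at least 10 interactions in a library of each group, are called measured in both groups below. Of them 1543 were called higher (17.8%) and 2597 lower (29.9%), with a median of −0.03, and scaling by total gave 4533 higher (52.2%) and 702 lower (8.09%), with a median of 0.73. Gene lists are counted over their members measured in both groups and are to be read against these shares. The number called higher over all 10419 was 1281 without NPM replicate 1 and 1544 without NPM replicate 2.

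Gene length ordered the changes. Of 894 transcripts measured in both groups from genes under 10 kb, 278 were called higher (31.1%) and 65 lower (7.27%), with a median of 0.65. In genes of 10 to 50 kb 21.6% were called higher and 16.3% lower, with a median of 0.23. From 50 to 200 kb the median was −0.42. The gene lists below were not matched for gene length and are to be read against these shares too. Of 704 transcripts from genes over 200 kb, 70 were called higher and 497 lower, with a median of −0.81. Scaling by total kept the order of the medians, from 1.39 down to −0.05, but gave 572 higher and 13 lower among the 894 shortest genes and 203 higher and 246 lower among the 704 longest.

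Messenger RNAs of endoplasmic reticulum chaperones, which fold secreted and membrane proteins, were mostly higher in NPM. Of 14 tested, 12 were measured in both groups, of which 7 were called higher and none lower, where 17.8% of all such transcripts were called higher. Their median log2 fold change was 1.20. The list was not matched for gene length. Of all such transcripts from genes under 10 kb, 31.1% were called higher, and of those from 10 to 50 kb, 21.6%. Scaling by total gave 12 higher and none lower, where 52.2% of all such transcripts were higher and 8.09% lower. Hspa5, which encodes the luminal chaperone BiP, had 29, 18 and 25 interactions in 1FA and 245 and 217 in NPM. The log2 fold change was 3.27 (SE 0.22, limma adjusted p = 1.93e-05). Hsp90b1, which encodes GRP94, had 39, 16 and 18 interactions in 1FA and 258 and 162 in NPM (log2 fold change 3.17). Canx, which encodes the lectin chaperone calnexin, had 44, 39 and 66 in 1FA and 406 and 145 in NPM (2.32), with the NPM libraries far apart. Hspa5 and Canx were named among called transcripts whose groups did not overlap, so their separation follows from the choice. In the NPM libraries 82.0% of Hspa5 RNA tags lay in coding sequence in both replicates, against 51.7%, 55.6% and 20% in 1FA, and all of its DNA tags lay in the Hspa5 gene. For Canx, too, all DNA tags of the NPM libraries lay in its own gene. P4hb, a disulfide isomerase of the list, overlapped between the groups after scaling (77, 70 and 57 against 94 and 55 interactions, 0.10).

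Immediate-early genes, which are transcribed within minutes of a growth signal, were measured in both groups in 9 of 15 tested, with 4 called higher and 3 lower against 17.8% and 29.9% of all such transcripts. Their median was 1.15. This list, too, was not matched for gene length, and genes under 10 kb were called higher in 31.1% and lower in 7.27%. Scaling by total gave 6 higher and none lower, against 52.2% and 8.09% of all such transcripts. Egr1, a zinc-finger transcription factor, had 34, 24 and 36 interactions in 1FA and 155 and 266 in NPM (log2 fold change 2.71, SE 0.31, limma adjusted p = 0.000362). Myc had 32, 35 and 51 in 1FA and 176 and 106 in NPM (1.82). Fosl2 and Atf3 were called lower, with log2 fold changes of −1.14 and −0.98, and Fosl2 lies in the block of chromosome 5 described below. Fosb overlapped between the groups after scaling, since 42 and 163 interactions in NPM stood against 38, 39 and 35 in 1FA (1.15, limma adjusted p = 0.111).

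Of 9 host genes of small nucleolar RNAs tested, 5 were measured in both groups. Of these 3 were called higher and 1 lower, against 17.8% and 29.9% of all such transcripts and 31.1% and 7.27% of those from genes under 10 kb. Scaling by total gave 4 higher and none lower, against 52.2% and 8.09%. Gas5 had 23, 13 and 33 interactions in 1FA and 151 and 139 in NPM (log2 fold change 2.73), and Snhg1, which passed the count filter only through NPM, had 2, 2 and 3 against 29 and 37. Dancr, which passed it only through 1FA, had 53, 63 and 73 against 6 and 6, and 92.5%, 95.2% and 84.9% of its 1FA interactions were trans while none of its NPM interactions were. Of 70 histone genes 17 were listed and 9 tested, and 7 of these passed the count filter only through NPM, so the values are a description. Hist1h1e, a linker histone gene, was listed at 0 in all 1FA libraries and had 69 and 48 interactions in NPM, and Hist1h2be had 12, 6 and 15 against 28 and 43. Histone genes lie in clusters of similar copies, so their tags may be split between copies.

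The other named transcripts that rose were from varied genes. Plxnb3, a semaphorin receptor of oligodendrocytes, had 38, 47 and 36 interactions in 1FA and 280 and 227 in NPM (log2 fold change 2.65). Bcan, which encodes the matrix proteoglycan brevican, had 80, 68 and 107 against 545 and 366 (2.42). Pcyt2, of phosphatidylethanolamine synthesis, had 48, 33 and 39 against 185 and 232 (2.38), and Polr2a, the largest subunit of RNA polymerase II, had 51, 46 and 81 against 280 and 217 (2.10). These 4 genes were named among called transcripts whose groups did not overlap, so their separation follows from the choice. In NPM all DNA tags of Polr2a lay in its own gene. Gm27694 had the largest change of this group (22, 5 and 19 against 236 and 232, 4.14), but it lies inside the Malat1 gene, and Gm26917 (52, 70 and 67 against 236 and 306, 2.10) lies among ribosomal RNA gene copies, so that the assignment of tags to either is uncertain.

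Long genes of cell adhesion and synapses were lower in most cases. Of 27 tested, 23 were measured in both groups, of which 19 were called lower and 1 higher, where 29.9% of all such transcripts were called lower. Their median was −1.07. Of all transcripts of genes over 200 kb measured in both groups, 70.6% were called lower, against which the 19 of 23 are also to be read. Scaling by total gave 10 lower and 4 higher and a median of −0.30. It called 246 of the 704 transcripts of genes over 200 kb lower and 203 higher. Of all 8680 measured in both groups it called 8.09% lower and 52.2% higher. Cntn1, which encodes contactin, had 9565, 9474 and 10012 interactions in 1FA and 3458 and 2613 in NPM (log2 fold change −1.68, SE 0.18). Anks1b, which encodes a postsynaptic scaffold, had 16063, 16824 and 17365 against 5464 and 5573 (−1.59). Without own-gene contacts Cntn1 and Anks1b were called higher (1.16 and 2.17), as levels within the interactions that remained. Lhfpl3, listed among the progenitor markers of the study, had 12916, 13200 and 12965 against 9299 and 9022 (−0.50, limma adjusted p = 0.105) and turned to 0.27 with scaling by total. It was called lower with the replicate block (−0.50), with voom weights (−0.50), without the count filter (−0.56) and with all 15 libraries in 1 fit (−0.63). Without own-gene contacts it was called higher (3.83), again within the interactions that remained. Of 11 core progenitor genes tested, 9 were measured in both groups. Of these 2 were called higher and 5 lower, against 17.8% and 29.9% of all such transcripts. Scaling by total gave 3 each way, against 52.2% and 8.09%. Sox6, Tnr, Zeb2, Ptprz1 and Pcdh15 were the lower ones, and Olig2 and Vcan the higher ones. Sox6 was called higher without own-gene contacts (1.88), within the interactions that remained. Olig1 and Pdgfra passed the count filter only through NPM. Olig2 had 45, 34 and 58 interactions in 1FA and 147 and 101 in NPM (1.45).

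Of the 10 named transcripts with the largest falls, 7 were on chromosome 5 between 5 and 45 Mb. Of all 10419 transcripts tested, 243 were from chromosome 5 below 45 Mb. The block was chosen after its values were seen, so the 7 are a description. Ppp1cb, a catalytic subunit of protein phosphatase 1, had 5787, 5590 and 3523 interactions in 1FA and 944 and 914 in NPM (log2 fold change −2.38). It was listed with 320 to 326 bins in the 1FA libraries and with 11 in NPM. Stx18, which encodes a SNARE of the endoplasmic reticulum, had 3072, 2910 and 2687 against 575 and 596 (−2.29), and Rab28, a small GTPase, had 5016, 4613 and 3974 against 1122 and 923 (−2.14). Plb1, a phospholipase gene between Babam2 and Ppp1cb, went the other way, with 83, 47 and 44 against 272 and 215 (2.12). Gm43312 and Gm43313, also named for their falls, lie inside Ppp1cb and are uncertain for that reason. The named transcripts of the block are thus not all separate loci. Of the 243 transcripts tested from chromosome 5 below 45 Mb, 83 were called lower (34.2%) and 75 higher (30.9%), where 25.7% and 29.7% of all transcripts tested were. Of 543 from the rest of chromosome 5, 20.8% were called lower and 30.2% higher. These shares include transcripts that passed the count filter only through NPM or only through 1FA, which had to differ, so they are a description. Snord118, the U8 small nucleolar RNA of ribosomal RNA processing, had 577, 486 and 734 interactions in 1FA and was listed at 0 in both NPM libraries.

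**Figure D4:**
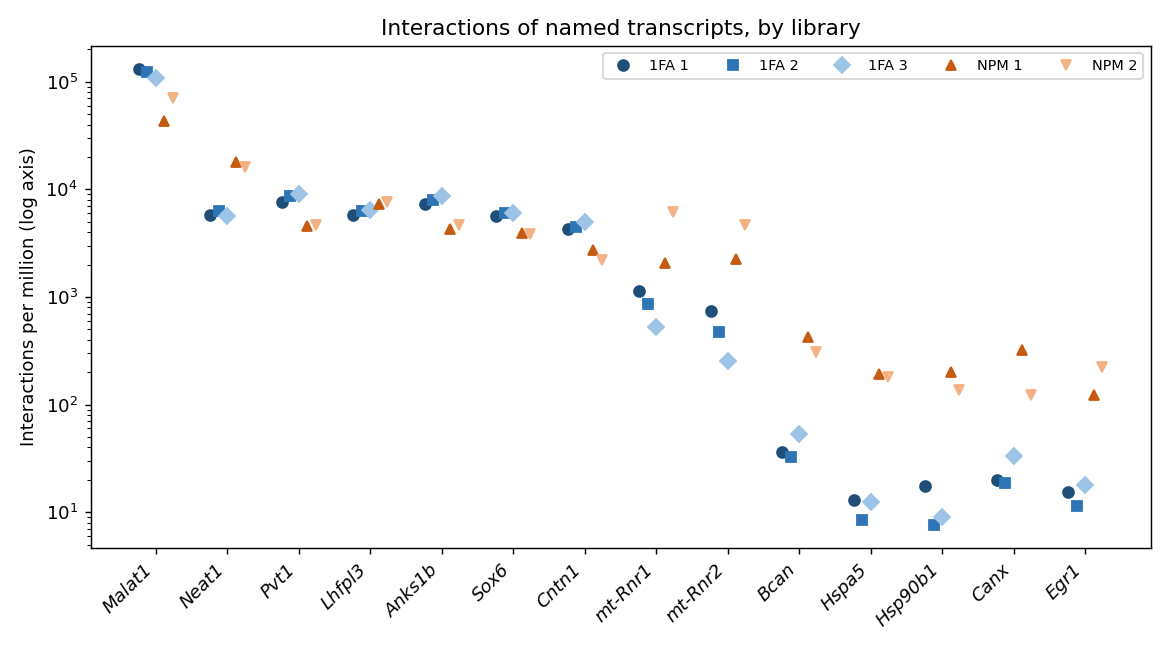
CPM, interactions per 1000000 listed (vertical, log axis) of named transcripts (horizontal), 1 point per library. Malat1, Pvt1, Anks1b, Sox6 and Cntn1 lie higher in 1FA, and Neat1, Hspa5, Hsp90b1, Canx, Bcan and Egr1 higher in NPM. On this scale of totals Lhfpl3 lies slightly higher in NPM, and the 2 NPM libraries of mt-Rnr1 lie apart from each other.

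Of 13 nuclear long noncoding RNAs tested, 11 were measured in both groups. Of these 5 were called higher and 5 lower, against 17.8% and 29.9% of all such transcripts. Scaling by total gave 5 higher and 4 lower, against 52.2% and 8.09%. Malat1 was the most captured RNA of every library, with 292296, 258180 and 216210 interactions in 1FA and 55344 and 84479 in NPM. Its NPM libraries lay below all 1FA libraries, but its log2 fold change of −1.88 had an SE of 1.22 and was not called (limma adjusted p = 0.224). It was called without 1FA replicate 2, without NPM replicate 1 or without NPM replicate 2 (−1.82, −1.33 and −2.13), and also with voom weights (−1.89), without the count filter (−1.95), with the replicate block (−1.99) and with all 15 libraries in 1 fit (−2.02). Without own-gene contacts it was called higher (2.998), as a level within the interactions that remained. As CPM of all listed interactions its distant contacts were lower, as given below. Pvt1, a long noncoding RNA encoded beside Myc, had 16792, 18414 and 18060 interactions against 5777 and 5572 (−1.64, limma adjusted p = 0.00117). Without own-gene contacts Pvt1 too was called higher (1.79) within the interactions that remained. Of the Malat1 interactions 95.2%, 95.9% and 95.7% were trans in 1FA and 51.8% and 56.1% in NPM. Contacts within its own gene were 1.36%, 0.59% and 0.83% in 1FA and 47.7% and 43.6% in NPM.

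Neat1 had 12746, 13162 and 11286 interactions in 1FA and 23117 and 19282 in NPM (log2 fold change 0.78, SE 0.28, limma adjusted p = 0.0475). The call was lost without 1FA replicate 1 or 1FA replicate 3 (0.76 and 0.71) with median-of-ratios scaling (0.71) and with equal thinning and a pair minimum of 5 (0.76). Its own-gene share was 13.3%, 7.61% and 10.8% in 1FA and 69.7% and 69.2% in NPM. RNA tags near the 5′ end of Neat1 were more frequent in 1FA. The opening 5% of the gene held 23.3%, 26.2% and 21.2% of its cis interactions in 1FA and 3.81% and 9.54% in NPM, and 23.7%, 22.7% and 19.7% of its trans interactions against 5.47% and 13.7%. NPM replicate 2 lay closer to 1FA than NPM replicate 1 in both.

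The RNA sites with the most NPM interactions show where on these RNAs the tags were centred. They are given below for the 3 most captured noncoding RNAs of the NPM libraries, as 27 bases of the transcribed strand in GRCm38 (mm10) read from the RefSeq genome, 5′ to 3′, with the base at the tag centre in capitals.
Malat1 (chr19:5796173-5796199, minus strand, exon): agcaagcctttgtAggaagttgttggg
Neat1 (chr19:5824707-5824733, minus strand, exon): acgaacgtgagcaGgaaaaagcaaaag
2610035D17Rik (chr11:113190583-113190609, minus strand, intron): aaaaatatttaggTtttcctatgtgtg
The Malat1 site, at base 6487 of 6983 of the gene, was used in both groups, with 1356, 1086 and 886 interactions in 1FA and 278 and 557 in NPM, or 0.46%, 0.42% and 0.41% against 0.50% and 0.66% of the Malat1 interactions. The Neat1 site lies at base 20759 of 20771, at the annotated 3′ end, and had 5, 3 and 2 interactions in 1FA and 35 and 201 in NPM. Its share of Neat1 interactions was 0.039%, 0.023% and 0.018% in 1FA and 0.15% and 1.04% in NPM, so that the NPM libraries were higher but far apart. The leading site of 2610035D17Rik, a long noncoding gene on chromosome 11, held 8, 8 and 2 interactions against 13 and 11, or 0.066%, 0.057% and 0.019% against 0.23% and 0.19% of the interactions of that gene. These sites were chosen by their NPM interactions, so the values are a description.

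Small stable RNAs of the nucleus differed among themselves. Rmrp, the RNA of RNase MRP, had 659, 697 and 1272 interactions in 1FA and 700 and 836 in NPM (log2 fold change −0.12), with groups that overlapped after scaling. Its own-gene share was 10.0%, 5.02% and 4.32% in 1FA and 49.0% and 36.0% in NPM. Rn7sk, which holds the elongation factor P-TEFb inactive, had 1034, 979 and 2120 against 719 and 462 (−1.15, limma adjusted p = 0.0234). On the scale of library totals its groups overlapped. It stayed mostly trans, with 93.6%, 97.0% and 97.0% in 1FA and 84.7% and 85.9% in NPM. Scarna2, a Cajal body RNA that guides modification of spliceosomal RNAs, had 8, 5 and 3 interactions against 138 and 235 and passed the count filter only through NPM. Of 10 such RNAs tested, 4 were measured in both groups. None of these was called higher and 2 lower, against 17.8% and 29.9% of all transcripts measured in both groups. Scaling by total gave 1 higher and none lower, against 52.2% and 8.09%. Of 12 mitochondrial transcripts tested, 9 were measured in both groups. Of these 6 were called higher and none lower, against 17.8% and 29.9% of all such transcripts. Scaling by total gave 7 higher, where 52.2% of all such transcripts were. The other 3 passed only through 1FA. The ribosomal RNAs mt-Rnr1 and mt-Rnr2 led them with 2501, 1808 and 1049 against 2627 and 7415, and 1648, 1006 and 511 against 2894 and 5561. NPM replicate 2 held far more of both. The log2 fold change of mt-Rnr1 was 1.40 (limma adjusted p = 0.0498), and it was not called without 1FA replicate 2, without 1FA replicate 3 or without NPM replicate 2 (1.51, 1.06 and 0.71), nor with median-of-ratios scaling (1.34), without the count filter (1.34), with equal thinning and a pair minimum of 5 (1.64) or with all 15 libraries in 1 fit (1.27). That of mt-Rnr2 was 2.09 (limma adjusted p = 0.00898).

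Distant contacts, in trans or over 10 kb in cis, were compared on their own as CPM of all listed interactions. The calls hold for the listed pairs only. Of 6439 transcripts tested, 5 were called higher in NPM (0.0777%) and 6398 lower (99.4%). TMM scaling of the distant contacts alone gave 485 higher and 2599 lower, and median-of-ratios scaling 554 and 2548. Most of the 6398, namely 5675, reached 10 distant interactions in 1FA libraries only. Of the 737 transcripts with at least 10 in a library of each group, 3 were called higher (0.407%) and 723 lower (98.1%), and their median change was −4.63 on the log2 scale. Over all tested the median was −4.96, and 1939 of the called transcripts were listed without any distant contact in NPM. Dnajb6, Ywhaz, Myef2 and Cop1 were of this kind. Dnajb6, a co-chaperone gene, had 830, 846 and 692 distant interactions in 1FA and none listed in NPM, although 295 and 268 closer interactions were listed there. The 5 higher ones were mt-Rnr1, mt-Rnr2, Slbp, Nmt1 and Gm6157, the last 3 of them named after their values were seen. Apart from the mitochondrial ribosomal RNAs they had at most 27 distant interactions in a library, and Nmt1 (5, 6 and 4 against 15 and 13) and Gm6157 (none listed in 1FA, 24 and 27 in NPM) passed the count filter only through NPM. The mt-Rnr2 values were 513, 505 and 238 in 1FA and 1214 and 3216 in NPM (log2 fold change 3.09, SE 0.56, limma adjusted p = 0.00338). Those of mt-Rnr1 were 1339, 1286 and 721 against 1152 and 4484 (1.85, limma adjusted p = 0.0401), higher in both NPM libraries as CPM, and its call was lost when any 1 of the 1FA libraries was left out and with the replicate block (1.603, limma adjusted p = 0.0992).

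Against that median, a few noncoding RNAs lay close to their 1FA level. Neat1 had a distant level of 5018, 5790 and 5049 CPM in 1FA and 5511 and 4978 in NPM, a log2 fold change of −0.01 (SE 0.09) with overlapping groups. Rn7sk also overlapped, with 449, 460 and 1051 CPM against 486 and 337 (−0.57), but it was called lower without NPM replicate 1 (−0.83, limma adjusted p = 0.0160). Malat1 had 130375, 121747 and 107232 CPM against 22757 and 40036 (−1.98, SE 0.26, limma adjusted p = 0.000874). Lhfpl3 followed at −1.49, while 2610035D17Rik (−2.84), Anks1b (−3.14), Pvt1 (−3.37) and Sox6 (−3.39) were nearer to the median. With TMM scaling of the distant contacts alone these 8 values turned positive, from 1.21 for Sox6 to 4.59 for Neat1, since that scaling sets aside the loss common to most transcripts.

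Trans contacts were next described by RNA. Malat1 gave 94.4%, 93.3% and 91.6% of trans interactions in 1FA and 57.4% and 63.5% in NPM. All other RNAs together gave 16575, 17839 and 19035 trans interactions in 1FA and 21287 and 27191 in NPM, or 0.75%, 0.85% and 0.95% of the 1FA libraries and 1.67% and 2.28% of the NPM libraries. Anks1b and Pvt1, whose RNA tags are mostly intronic, differed in this respect, with a trans share of 1.14%, 0.969% and 1.0999% in 1FA against 16.6% and 18.3% in NPM for Anks1b and of 0.77%, 0.73% and 0.89% against 14.5% and 15.7% for Pvt1. The trans contacts of Anks1b touched 40 bins in each 1FA library and 140 and 141 bins in NPM.

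The DNA side of the trans contacts was concentrated in NPM. Malat1 was listed with 13251 trans bins in 1FA and 1546 in NPM, and the 1097 bins in both were 8.28% of the 1FA bins and 71.0% of the NPM bins. Of the Malat1 trans interactions, 8.56%, 8.58% and 8.31% in 1FA and 50.1% and 49.9% in NPM fell on chromosome 5 between 5 and 45 Mb. Over the next 60 Mb of the chromosome it had 1173, 909 and 834 interactions in 1FA and none listed in NPM. On chromosome 15 the stretch from 60 to 70 Mb took 1.44%, 1.55% and 1.61% against 11.3% and 10.8%, and that from 85 to 100 Mb 3.31%, 3.43% and 3.50% against 14.7% and 14.5%. The stretch between them, from 70 to 85 Mb, took 2.04% to 2.10% in 1FA and 0.37% and 0.41% in NPM. The 3 blocks together held 13.3%, 13.6% and 13.4% of Malat1 trans interactions in 1FA and 76.1% and 75.3% in NPM.

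The other RNAs were concentrated on the same block of chromosome 5 but not on the stretch of chromosome 15 from 85 to 100 Mb. From 5 to 45 Mb of chromosome 5 lay 29.8%, 27.6% and 27.6% of their trans interactions in 1FA and 55.4% and 56.5% in NPM. The stretch of chromosome 15 from 60 to 70 Mb took 2.27%, 2.30% and 2.33% against 3.57% and 3.05%, and that from 85 to 100 Mb took 4.27%, 4.54% and 4.36% against 4.21% and 3.89%, lower in NPM. The share of cis interactions in that block was 6.57%, 6.53% and 6.33% in 1FA and 5.04% and 4.99% in NPM. In mouse embryonic stem cells (mESC) treated alike, the block held none of the 869 and 1304 Malat1 trans interactions of the NPM libraries, and 1.16%, 1.14% and 1.15% of cis interactions in 1FA and 1.30% in both NPM libraries. Pvt1 and Cntn1 are encoded in the chromosome 15 blocks, and Lhfpl3, Babam2 and 5031425E22Rik in the chromosome 5 block. The blocks were chosen after their values were seen and were not tested. The number of copies of these segments in the line was not measured here, and its part was not tested.

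**Figure D5:**
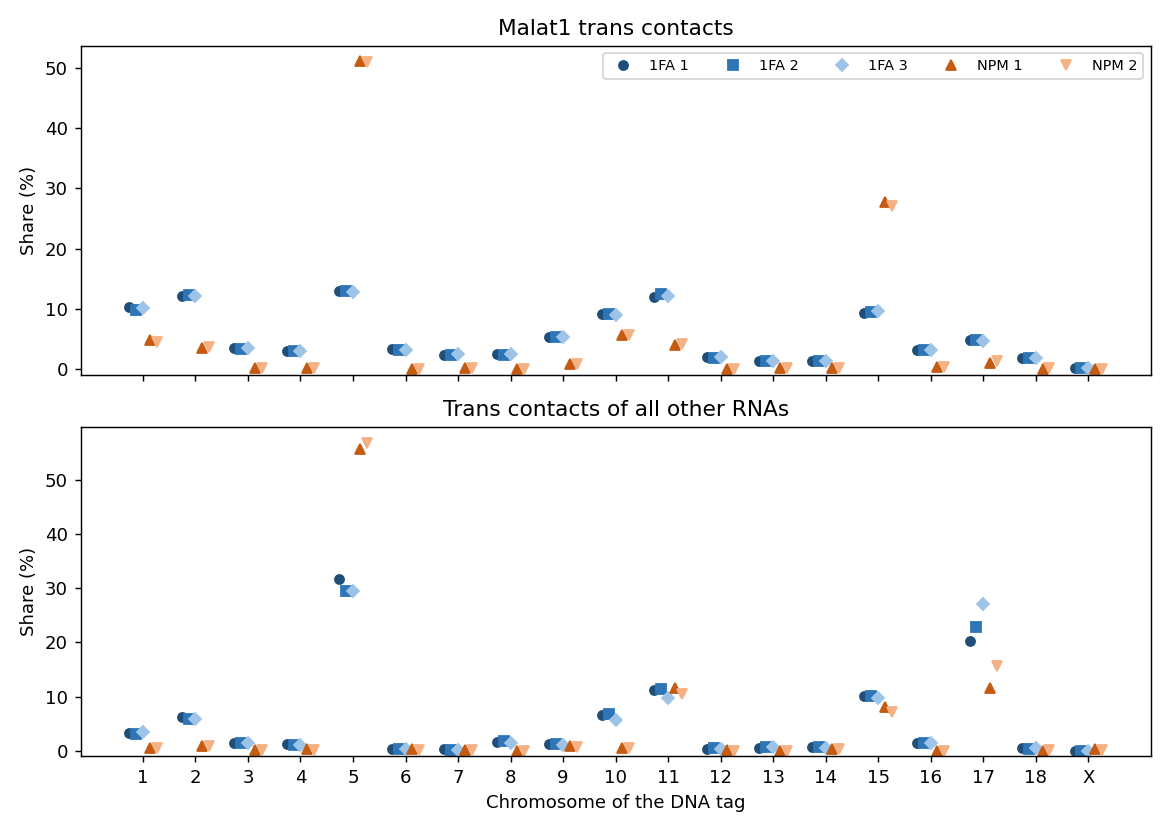
Share of trans interactions (vertical, percent) by the chromosome of the DNA tag (horizontal; chromosomes 19, Y and M are not drawn), for Malat1 (top) and all other RNAs (bottom), 1 point per library. Chromosomes 5 and 15 take most of the Malat1 trans contacts of the NPM libraries and a smaller share of those of 1FA. For the other RNAs, chromosome 19 took 0.38%, 0.33% and 0.38% in 1FA and 7.37% and 3.82% in NPM. Chromosome M took 0.43%, 0.33% and 0.17% of their trans interactions in 1FA and 1.31% and 2.57% in NPM.

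DNA bins were compared over all RNAs. Of 43108 bins tested, 7109 were called higher in NPM (16.5%) and 20124 lower (46.7%), of which 12334 had no interaction listed in NPM and 14894 reached 10 in 1FA libraries only. Of the 26443 bins with at least 10 in a library of each group, 6693 were called higher (25.3%) and 5230 lower (19.8%). With equal thinning and a pair minimum of 5 the number lower was 8836, and without own-gene contacts 1226 bins were higher and 32328 lower. Among bins with a mean of at least 100 interactions, the largest rises were in the 3 neighbouring bins of Malat1 and Neat1 (chr19:5775000-5849999). The bin from 5825000, which holds most of Neat1, had 2148, 1392 and 1581 interactions in 1FA and 16871 and 13967 in NPM (log2 fold change 3.86, SE 0.15, limma adjusted p = 3.07e-07). The bin chr11:3175000-3199999 at Sfi1, a centrosomal gene, had 190, 182 and 188 against 1303 and 1475 (3.56), and 1185 and 1342 of its NPM interactions were trans. A bin with ribosomal RNA gene copies (chr17:39825000-39849999) was contacted in trans in both groups, with 3033, 3758 and 4856 interactions in 1FA and 2657 and 4753 in NPM, and was not called (0.66, limma adjusted p = 0.0887). It was called with voom weights (0.66), without NPM replicate 1 (1.14), with a replicate block (0.87) and without own-gene contacts (2.76). The RNAs that reached it differed. In 1FA Rmrp, Snord118 and Malat1 gave the most trans contacts there, with 1024, 1010 and 478 interactions over the group, and in NPM Malat1, Neat1 and mt-Rnr1 did, with 732, 202 and 152. Leaving out the 3 bins with the most trans contacts in NPM moved the difference in trans share from −7.31 to −7.63 points. Leaving out all DNA tags in the 3 blocks of chromosomes 5 and 15, an alternative chosen after their values were seen, lowered the trans share of the NPM libraries from 3.93% and 6.27% to 1.28% and 2.05%, while 1FA had 10.7% to 12.7%. It also lowered the NPM share of cis contacts from 1 to 10 Mb from 0.106% and 0.119% to 0.0076% and 0.0125%, so that the blocks held most of the NPM contacts of both kinds.

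Transcripts listed in 1 group only held few interactions. The 3360 found in NPM alone held 2.36% and 2.11% of the NPM interactions, 94.2% and 93.0% of them within 1 kb and 66.4% and 66.9% of them in introns. Their DNA tags lay upstream in 92.8% and 93.5% of close contacts over 25 bp apart. The 408 found in 1FA alone held 0.13%, 0.11% and 0.14% of the 1FA interactions.

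In mESC the shares within 1 kb lay near those of mOPC in both groups, whereas the trans shares did so only in NPM. The mESC NPM libraries held 84.4% and 86.2% of interactions within 1 kb, with the DNA tag upstream in 97.2% and 98.9% of close contacts over 25 bp apart, against 3.80%, 5.52% and 4.30% within 1 kb in mESC 1FA. Trans interactions were 5.51%, 6.73% and 5.44% of mESC 1FA and 3.61% and 4.87% of mESC NPM, a smaller gap than in mOPC, and the difference between the lines was not tested. For mESC, too, the paper reports a higher trans share in NPM among all uniquely mapped interactions. Malat1 gave 5.54% and 4.397% of mESC NPM trans interactions against the 57.4% and 63.5% of mOPC NPM. For single transcripts, the effect of NPM differed between the lines in 4031 of 12213 tested with limma (33.0%), 2763 higher (22.6%) and 1268 lower (10.4%) in mOPC, but 2288 of these were listed at 0 in a whole group. Of the 5487 with at least 10 interactions in all libraries, 405 were called higher and 725 lower. Among these calls 329 had opposite directions in the lines, counted only where the NPM and 1FA groups did not overlap in either line. Egr1 was not counted among them. Its fitted effects had opposite directions, but its mESC groups overlapped after scaling, with log2 CPM of 4.55, 6.12 and 5.90 in 1FA and 4.73 and 4.64 in NPM.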

How the data were processed

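Per the labels and the study's methods, the authors took RNA and DNA tags from the reads, discarded ribosomal RNA and duplicate read pairs, aligned the rest to mm10 with BWA 0.7.15-r1140, kept the centre base of each tag, and assigned RNA to genes by strand and DNA to 25-kb bins. A binomial test per transcript and bin on pooled replicates gave the listed pairs. The deposited values are genome positions of both tag centres, a unit recorded here as other. Each file also holds the authors' p-value and adjusted p-value per pair, which were not used. One column of the NPM files names a control, and groups were taken from the labels.

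Interactions were counted per library, transcript and bin. Transcript and bin counts, scaled by TMM factors, and distant counts, scaled by the total, were tested as log2 CPM (prior count 0.5) with limma 3.58.1 in R 4.3.3, with its mean trend. Features needed at least 10 interactions in 2 libraries and 15 in all, and calls an adjusted p under 0.05. Shares were tested with exact permutation tests (scipy 1.17.1). The scripts were tested on simulated data. A planned test of the bins contacted by Malat1 made mostly false calls there and was dropped. Tag overlap and DNA strand, also planned, cannot be had from tag centres. Symbols and gene spans come from GENCODE M21. Members and gene lists were chosen with earlier results of these data known.

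Named transcripts were the 10 largest changes each way among called transcripts with a mean of at least 100 interactions and groups that did not overlap, the 10 most captured of each group, the 10 with the most distant contacts in NPM, the 5 largest distant changes each way and up to 6 of each list. Bins were named alike. Olig1, Olig2, Pdgfra, Vcan and the transcripts with fewer interactions were named after their values were seen. Alternatives tried were other scalings, prior count 2, no filter, voom weights, equal thinning with a pair minimum of 5, each library left out, a replicate block, and leaving out Malat1 or own-gene contacts.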

Additional observations from a re-analysis of the deposited data

Results flagged for a closer look

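The effect of protein removal differed between mOPC and mESC, by a test of the difference itself, in 4031 of 12213 transcripts (limma, adjusted p under 0.05). Of those tested, 2763 (22.6%) were higher and 1268 (10.4%) lower in mOPC, but 2288 of the calls were listed at 0 in a whole group. Of the 5487 with at least 10 interactions in all libraries, 405 were called higher and 725 lower. Among called transcripts with at least 10 interactions in all libraries, the following 10 had the largest differences within each direction. They were named after their values were seen, and the fitted effects of all 10 had opposite directions in the lines. Values are log2 fold changes (NPM minus 1FA) and their difference, mOPC minus mESC. Rn7sk, the RNA that holds P-TEFb inactive, had a difference of −4.48, from 3.20 in mESC and −1.27 in mOPC. It had 26, 64 and 39 interactions in mESC 1FA against 109 and 112 in mESC NPM, where both NPM libraries were higher. Egr1 had a difference of 3.43, from −0.84 in mESC and 2.59 in mOPC. Its mESC groups overlapped after scaling, with log2 CPM of 4.55, 6.12 and 5.90 in 1FA and 4.73 and 4.64 in NPM, as did those of Gm25835, with 4.89, 3.85 and 3.47 against 6.58 and 4.25. The other differences below 0 were −4.36 for Gm25835, −3.20 for Myo16, −3.16 for Antxr1 and −3.16 for Snord33. The others above 0 were 4.05 for Gm37240, 3.04 for Dpysl5, 2.75 for Arhgap22 and 2.68 for Fbxo31. Fbxo31, an F-box protein gene, had 246, 231 and 245 interactions in mESC 1FA and 13 and 28 in mESC NPM, against 13, 13 and 11 and 35 and 16 in mOPC. These interactions are unscaled, and the mESC NPM libraries had lower totals than mESC 1FA. Lists were made separately for each line and treatment, and the part of the listing in these differences was not tested.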

How the results depend on the processing

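Of the summary values under another setting, 195 moved little, 24 moved and 8 turned. The other values were those of named features and of further shares, which have no call. Of them 1167 kept their direction and any call, 19 lost and 21 gained a call and 51 turned. Values are differences in percentage points or log2 fold changes, NPM minus 1FA, and the cause was not tested unless stated. Scaling by total gave 6157 transcripts higher and 757 lower and turned Lhfpl3 to 0.27. Without own-gene contacts 290 transcripts were higher and 4370 lower, and 1226 bins higher and 32328 lower. That setting leaves few NPM interactions by its construction and takes those that remain as its base. It turned trans to 69.2, exon 52.2, CDS −0.492, 3′ UTR −2.37, 5′ UTR 0.976, protein-coding −53.3, lncRNA 44.3 and simple repeats −0.109. It also turned Hspa5 −3.30, Pcyt2 −1.78, Canx −4.91, Plb1 −0.95, Polr2a −5.21, Gm43312 0.23, Malat1 3.00, Pvt1 1.79, Anks1b 2.17, Babam2 0.67, Lhfpl3 3.83, Sox6 1.88, 2610035D17Rik 2.32, 5031425E22Rik 1.17, Cntn1 1.16 and the bin chr5:23425000-23449999 −0.50. Hspa5, Canx and Polr2a had no such interaction listed in NPM, so their values rest on the prior count and are no folds. Distant contacts with TMM gave 485 higher and 2599 lower, with Malat1 2.62, Neat1 4.59, Lhfpl3 3.11, Anks1b 1.46, Pvt1 1.23, 2610035D17Rik 1.76, Sox6 1.21 and Rn7sk 4.03. Median-of-ratios scaling gave 554 and 2548, with 2.72, 4.70, 3.21, 1.57, 1.33, 1.87, 1.31 and 4.13 in the same order. Distant Neat1 was 0.072 beyond 100 kb, 0.00264 with equal thinning and a minimum of 5 per pair, and −0.083 to 0.063 with 1 library left out. Without Malat1, trans was 1.14, exon 2.74, protein-coding −1.94 and lncRNA 1.26. With each pair counted once, trans was 2.93, the 1 to 10 kb class 1.97, exon 0.314, 5′ UTR 0.293, protein-coding −2.53, lncRNA 0.841 and LTR repeats 0.201, and with each RNA position counted once exon was 1.89. No filter on low counts gave 5896 transcripts higher, 38 distant higher, 36245 bins lower and 6118 and 1930 differences between the lines, since more features were tested. Thinning to equal pooled numbers with a minimum of 5 per pair left 8836 bins lower.

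Leaving out 1 library gave 1281 to 3355 transcripts higher and 1804 to 2654 lower, 3 to 4 distant higher and 5952 to 6416 lower, 5184 to 7330 bins higher and 15525 to 20468 lower, and 1960 to 2853 differences between the lines higher and 666 to 1293 lower. The lowest of each of the transcript counts came without NPM replicate 1, as did the 666. The difference in median upstream distance ranged from −1.5 bp without 1FA replicate 1 to 29.5 bp, and that in simple repeats from −0.00149 points without NPM replicate 2 to 0.159 points. Replicate numbers 1 and 2 are shared, but nothing says that they mark a shared batch, and same-numbered libraries had deviations correlated at −0.0657 and 0.160 over 10419 transcripts. With the number as a replicate block, 3620 transcripts were higher and 2878 lower, 3 distant higher and 745 differences between the lines lower, and Malat1 was called at −1.99. The alternatives for the bins contacted by Malat1 were not run. The sequencing depth behind the lists was not used here, so a listed 0 sets no upper limit, and the number of libraries limits the precision.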

Other observations

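Genes of other pathways were counted over the members with at least 10 interactions in a library of each group. Of all 8680 such transcripts, 17.8% were higher and 29.9% lower in NPM by the limma test on the TMM scale, and 52.2% and 8.09% with scaling by total, so that the direction of a list depended on the scaling. Of 16 genes of cholesterol synthesis, 3 were called higher and 3 lower on the TMM scale, and 9 higher and 0 lower with scaling by total. Lss, which closes the sterol rings, had 146, 91 and 211 interactions in 1FA and 585 and 268 in NPM (log2 fold change 1.49), whereas Srebf2, the transcription factor that drives the pathway, was called lower (−0.92). Of 36 ribosomal protein genes, 6 were called higher and 7 lower, and 17 and 1 with scaling by total. Of 35 splicing factor genes, 8 were called higher and 9 lower, and 21 and 1 with scaling by total. Of 9 paraspeckle protein genes, 1 was called higher and 3 lower, and 3 and 0 with scaling by total. Sfpq, an RNA-binding protein that paraspeckles need, had 286, 197 and 190 interactions in 1FA and 393 and 392 in NPM (0.84).

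Of 16 factors that resolve RNA–DNA hybrids, 6 were called higher and 4 lower on the TMM scale, and 11 and 0 with scaling by total. Ddx5, an RNA helicase, was higher (0.84), and Dhx9, another helicase, and Xrn2, an exonuclease, were lower (−0.89 and −0.87). These counts describe the capture of the transcripts, not the activity of the proteins.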
